A study of Drosophila melanogaster with 3 samples.

Results

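Exonic peaks outside promoters are the sites of net-GFP binding whose summit lay in an annotated exon, coding, untranslated or noncoding, with the nearest transcription start site (TSS) more than 500 bp away. The rule took 210 peaks, or 2.77%, of the thresholded peak list made from all 3 libraries, and left 7361 other peaks in that list. Gene models were those of Ensembl release 115 on build dm6, without transposable elements and pseudogenes. The libraries were made by ChIP-seq, in which DNA bound by a protein is precipitated with an antibody and sequenced. The material was whole prepupae of *Drosophila melanogaster*, pooled male and female, from 1 transgenic line that stably expressed net with GFP at its C-terminal end. Chromatin was sonicated and precipitated with an antibody against GFP, and the age of the animals is given as unknown. The 3 libraries are biological replicates numbered 1, 3 and 4, and all belong to 1 group. The authors' control alignment was not analysed here, and no precipitation from animals with GFP alone was analysed. Peak lists hold no expression values, so tissue markers could not be checked, and strong binding in few cells cannot be told apart from weak binding in many.

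The protein net belongs to the basic helix-loop-helix (bHLH) transcription factors and is known to repress vein formation in the wing. Proteins of this class bind DNA as dimers at E-boxes, which have the letters CANNTG. A 5′ untranslated region (UTR) lies between the start of a transcript and its start codon, and a 3′ UTR follows the stop codon. Long noncoding RNAs (lncRNAs) have exons but no long reading frame, and many lie inside the introns of protein-coding genes.

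The letters under the summits show how unlike these peaks were in base composition, and where an E-box lay near the centre. Each line gives the 29 bases centred on a summit, on the plus strand of dm6, in lower case with every CANNTG in capitals. The first 8 lines are strong peaks matched in all 3 libraries, 2 in coding sequence, 2 in 5′ UTRs, 2 in 3′ UTRs and 2 in noncoding exons. The strongest coding peak, in otp, and the second strongest 5′ UTR peak, in Fbl6, are described further on without their letters. The last 4 lines are further strong peaks with an E-box in this window.
CG31635, coding, chr2L:6646466-6646494: tCAGCTGttgCACTTGtttcccctacgcc
CG5895, coding, chr3L:16037114-16037142: catggctaaccgcgattatgtaaatttgg
cbt, 5′ UTR, chr2L:479137-479165: tgttCAGCTGcggcctctcgctcgcactc
Raf, 5′ UTR, chrX:2296307-2296335: aatcttacaaatcgcagtatttacctggc
Lsd-2, 3′ UTR, chrX:15069513-15069541: tgacacgccccttacgccgaaggcggggg
Ance-3, 3′ UTR, chr2L:13955930-13955958: ctactcgaaacattaatttcttgtaaatt
lncRNA:CR46035, noncoding, chr3R:17704398-17704426: tgtttctgatcaagtcactcatcaaaaga
lncRNA:Vinr, noncoding, chrX:12751332-12751360: ccaatcccttacatgtttctgttaaaaat
lncRNA:CR44331, noncoding, chr3R:8113124-8113152: CACCTGagatttggtgcttcaatattttt
lncRNA:CR44517, noncoding, chrX:9141415-9141443: CAGGTGctcagtagaagtatgcaagcata
Hr4, 3′ UTR, chrX:2006006-2006034: agtggcgcCACCTGtatttagagactcga
Pde1c, coding, chr2L:11816556-11816584: ccttaggccgcagcgcCATCTGccggctc

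Both noncoding summits of the first group were rich in A and T, with 10 G or C of 29 bases at lncRNA:CR46035 and 9 at lncRNA:Vinr. The cbt and Lsd-2 summits held 19 and 21. The CG31635 window had a pair of E-boxes 3 bases apart. An E-box fell within these 29 bases in 23 of the 210 exonic peaks (11.0%), against 11.1% over the whole list.

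The signal of a peak is the authors' own value, deposited per peak, and is used here only to rank peaks within a list. Signals of the 210 peaks ran between 135 and 2385 with a median of 206, against a median of 226 in the other peaks. Ranks below are by signal, with 1 the strongest, in the list of 30000 peaks that the authors deposited for each library. A peak of the thresholded list was matched to a library by a summit within 100 bp, and the best rank was taken where several lay that close.

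Noncoding exons held 80 of the 210 peaks and the 3 strongest of all. The strongest lay in lncRNA:CR46035, an lncRNA of a single exon inside an intron of osa, which encodes a subunit of the Brahma chromatin remodelling complex (chr3R:17704196-17704658). Its signal was 2385 and it ranked 19, 17 and 14 in replicates 1, 3 and 4. The peak in lncRNA:Vinr, an RNA known to be induced by virus infection in the fly, had a signal of 2355 and ranks of 22, 29 and 12. The next, in the first exon of lncRNA:CR44619, had a signal of 1808 and ranks of 34, 48 and 36. These 3 were within the 50 strongest peaks of every library. Their summits were 717, 521 and 509 bp from the nearest TSS, so a promoter limit of 1000 bp would leave them out. The lncRNA:Vinr and lncRNA:CR44619 summits are neighbours, 1030 bp apart on X, and lncRNA:CR44619 held 2 more exonic peaks, with signals of 849 and 211.

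lncRNA:CR43334 was the host of the most exonic peaks, with 5 along its single exon at chr3L:628435-643900. The gene of the microRNA bantam (mir-ban), which promotes tissue growth and blocks cell death in the fly, lies inside this transcript at chr3L:642208-642288. The 5 summits lay between 1449 and 12217 bp from mir-ban, and their signals were 698, 575, 571, 313 and 137. The strongest ranked 586, 612 and 484 in replicates 1, 3 and 4, while the weakest had no summit within 100 bp in replicate 3. Further strong noncoding peaks differed in their setting. lncRNA:CR44331, in an intron of puc, the phosphatase that restrains JNK signalling, had a signal of 599 and ranks of 698, 793 and 719. lncRNA:CR46084, in an intron of the cell polarity gene scrib, had 543 and ranks of 793, 924 and 979. The lncRNA:CR44363 peak, in no intron and 514 bp from its nearest TSS, had 890 and ranks of 250, 288 and 360. The peaks in lncRNA:CR44468 and lncRNA:CR45232 had 586 and 520. Of the 80 noncoding peaks, 24 (30%) had the summit in an intron of another gene, so that the exon and intron labels of these sites depend on which gene is read. lncRNA:Hsromega, the RNA of the heat-inducible omega speckles, held a pair of summits 206 bp apart with signals of 184 and 141. The stronger was matched in replicate 3 alone and the weaker in replicates 1 and 4, so each library placed 1 summit there.

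**Figure D1:**
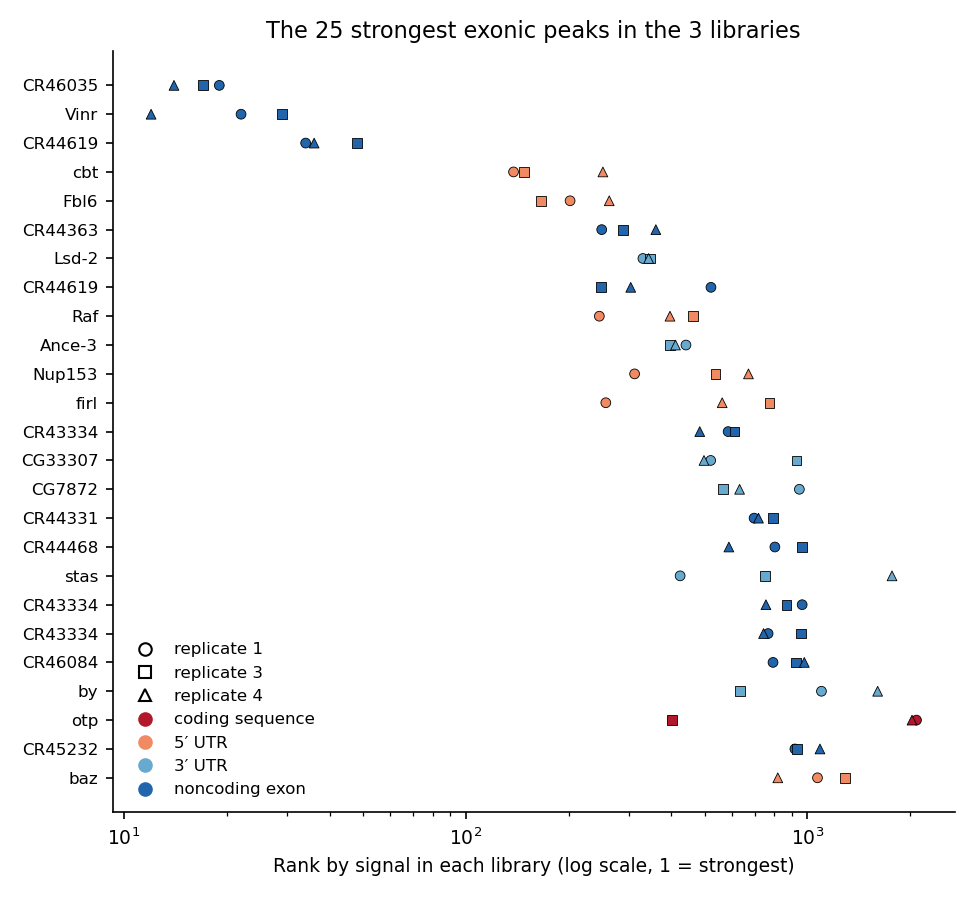
Rank of each of the 25 strongest exonic peaks in the 3 libraries (horizontal log axis, 1 = strongest; symbols are replicates 1, 3 and 4, colours the class of exon, and the prefix lncRNA: is left out of names). The 3 leading lncRNA peaks stay within the 50 strongest of every library, while the otp coding peak ranks 401 in replicate 3 and past 2000 in the other two.

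The 57 peaks in 5′ UTRs were led by cbt, which encodes the zinc finger transcription factor Cabut. The cbt summit was also in an intron of another cbt transcript and in an intron of another gene, ush. This peak had a signal of 1091 and ranks of 138, 148 and 252. Its summit was 537 bp from the nearest TSS, one of cbt itself. Fbl6, an F-box protein gene, followed with 1028 and ranks of 202, 166 and 263. Raf, the kinase that relays signals of the EGF receptor and other receptors to the MAP kinase cascade, had 806 and ranks of 246, 463 and 396. Nup153, a nuclear pore protein gene, had 742 and ranks of 312, 538 and 672. The firl peak had 737, and its ranks of 257, 774 and 563 were farther apart. In 34 of the 57 (59.6%) the summit was also in an intron of another transcript of the same gene. The Raf peak was not among them: its summit was in an internal 5′ UTR exon of the only transcript that spanned it.

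The next 5′ UTR peaks by signal were those in baz, cic, spen and eas. The peak in baz, the Par-3 polarity protein, had a signal of 519 and ranks of 1070, 1288 and 819. The peak in cic, a repressor relieved by EGF receptor signalling, had 517 and ranks of 1567, 689 and 1009. spen, which encodes a large RNA-binding nuclear protein, held 3 summits, with signals of 505, 232 and 136. The strongest of the spen summits ranked 589, 664 and 2882, so replicate 4 stood well below the other two. The peak in eas, an ethanolamine kinase gene, had 501 and ranks of 928, 915 and 1054.

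The 53 peaks in 3′ UTRs were led by Lsd-2, a perilipin of lipid droplets, with a signal of 865. Its ranks of 330, 347 and 343 were close together. Ance-3, a relative of angiotensin-converting enzyme, had 792 and ranks of 441, 396 and 411. CG33307 had 660 and ranks of 521, 929 and 498, and CG7872 had 628 and ranks of 947, 566 and 633. The peak in stas had 579, with ranks of 424, 751 and 1768. The peak in by, the fly tensin that links integrins to actin and is needed for wing adhesion, had 523 and ranks of 1099, 636 and 1605. In 39 of the 53 (73.6%) no annotated transcript had the summit in an intron.

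Coding sequence held 20 peaks, with a median signal of 187, below the medians of 5′ UTR (211), 3′ UTR (190) and noncoding peaks (232). Only otp, a homeobox transcription factor gene of the nervous system, exceeded 500. Its signal was 522, with ranks of 2085 and 2023 in replicates 1 and 4 and 401 in replicate 3. CG31635 had 366 and ranks of 1573, 2524 and 1642, and CG5895 had 295 and ranks of 2585, 1919 and 3266. The phosphodiesterase gene Pde1c had 261, with ranks of 3505, 2374 and 5015. The rest lay in bif, which had a pair of summits, klar, CG32428, Ubr1, sgg, cv-c, CG1632, Snx27, Tsp42Ee, CG10357, Cyp6v1, CG11668, HisRS, Dph4 and Wdr62, with signals between 135 and 248. Among these, sgg is the fly GSK3 kinase and klar a protein that moves nuclei and lipid droplets. The klar peak shows how far libraries could differ: it ranked 1635 in replicate 3 and 9488 and 11127 in replicates 1 and 4.

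Exon classes were not represented in proportion to their length. Annotated exons more than 500 bp from a TSS covered 26459 kb, of which 70.6% was coding, but coding sequence held 9.52% of the 210 peaks (exact Clopper-Pearson 95% interval 5.91 to 14.3%, counting error only, with peaks taken as independent). The 5′ UTR share was 27.1% of peaks (21.3 to 33.7%) against 3.07% of sequence, and the noncoding share 38.1% (31.5 to 45.0%) against 3.92%. The 3′ UTR share, 25.2% (19.5 to 31.7%), was near its share of the sequence, 22.5%. Per Mb of sequence this gave 1.07 peaks in coding exons, 70.2 in 5′ UTRs, 8.92 in 3′ UTRs and 77.1 in noncoding exons. The classes also differed in how far their peaks lay from the nearest TSS. The median distance was 897 bp for 5′ UTR and 906 bp for noncoding peaks, against 1557.5 bp for coding and 1610 bp for 3′ UTR peaks. Whether the densities differed between classes at equal distance from a TSS was not tested. Lists of lncRNAs and of 5′ UTR exons depend on the annotation, and the sequence more than 500 bp from a TSS counts all genes whether or not they are active in prepupae.

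**Figure D2:**
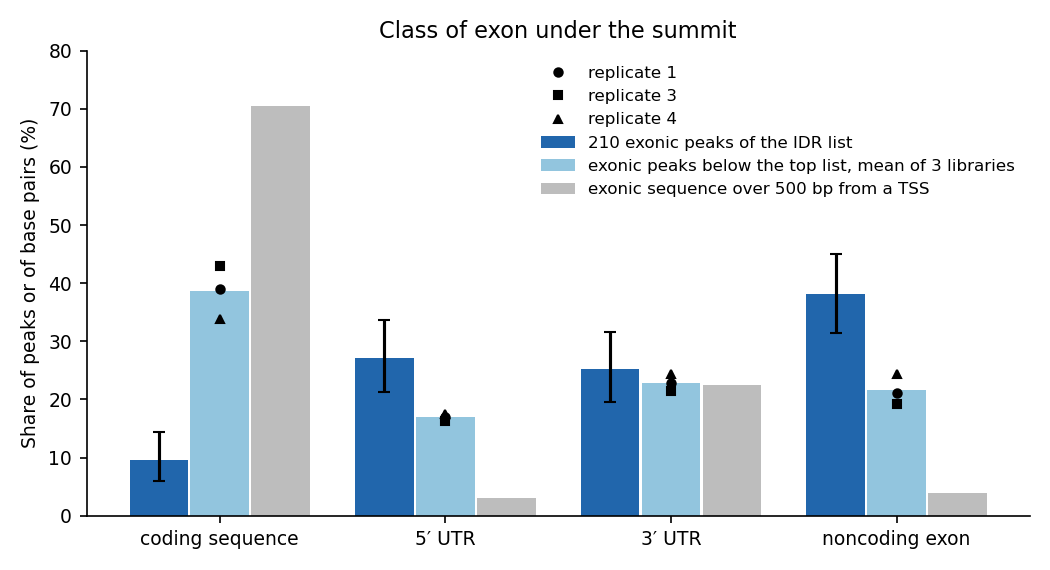
Share of each class of exon among the 210 exonic peaks (dark bars, with exact 95% intervals), among the weaker exonic peaks of the libraries (light bars, means, with a symbol per replicate) and in exonic base pairs over 500 bp from a TSS (grey bars). Coding sequence is 9.52% of the peaks, 38.6% of the weaker peaks and 70.6% of the sequence.

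The same classes were then counted in each library separately. The top list of a library was set to as many of its strongest peaks as the thresholded list holds, and the remaining peaks of the 30000 were called weaker. Among exonic peaks, coding sequence made up 8.84, 9.00 and 7.58% of the top lists of replicates 1, 3 and 4, against 39.0, 43.0 and 33.8% of the weaker peaks. The difference was −30.1 ± 3.93 percentage points (SD, n = 3 libraries), lower in 3 of 3 (exact two-sided sign-flip permutation test, p = 0.25). With 3 libraries 0.25 is the smallest p this test can give, so none of the comparisons between libraries can reach 0.05. The noncoding share was 36.3 ± 0.615% in top lists and 21.6 ± 2.66% in weaker peaks (SD, n = 3), and the 5′ UTR share 28.3 ± 2.15% in top lists and 16.9 ± 0.603% in weaker peaks, each higher in the top list of 3 of 3 libraries. The 3′ UTR share was 27 ± 2.33% in top lists and 22.9 ± 1.42% in weaker peaks.

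Exonic peaks as a whole were a larger part of the weaker peaks than of the top lists. They made up 5.49, 5.93 and 4.83% of the weaker peaks of replicates 1, 3 and 4, against 2.84, 2.79 and 2.79% of their top lists. The difference of 2.61 ± 0.547 percentage points was positive in 3 of 3 libraries (SD, n = 3; exact sign-flip permutation test, p = 0.25). In the list called on the pooled libraries, the exonic share was 2.6% (26 of 1000) among the 1000 strongest peaks and 5.4% (324 of 6000) among ranks 24001 to 30000. The coding share of these exonic peaks was 3.85% (1 of 26; exact 95% interval 0.0973 to 19.6%) at the strong end and 46.9% (152 of 324; 41.4 to 52.5%) at the weak end. At that end the coding share was still below the 70.6% that coding sequence took of the exons. The weaker peaks are described by the authors as peaks and background, so their share of background is not known.

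**Figure D3:**
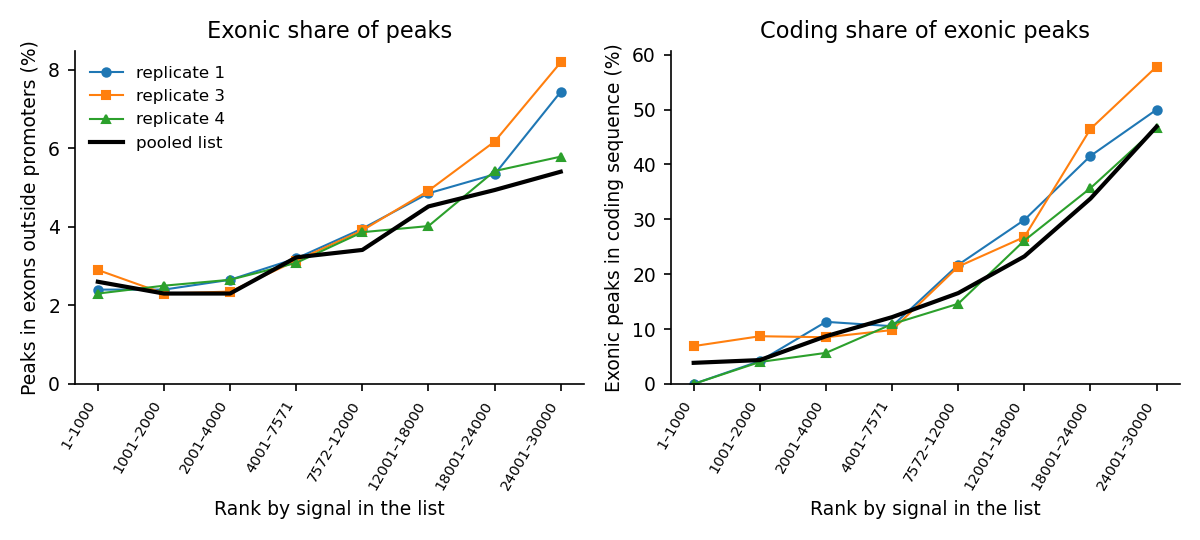
Exonic share of all peaks (left) and coding share of exonic peaks (right), both in percent, in 8 rank ranges of the pooled list (black) and of each library (coloured symbols). The coding share of exonic peaks in the pooled list is 3.85% in ranks 1 to 1000 and 46.9% in ranks 24001 to 30000, and each library shows the same direction.

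Exonic peaks sat somewhat lower in the libraries than the rest of the thresholded list. Their median rank was 4423 ± 42.1, against 4033 ± 32.0 for the other peaks (SD, n = 3), a difference of 390 ± 18.6 places that was positive in 3 of 3 libraries (exact sign-flip permutation test, p = 0.25). Its size depended on the rules: it was 305 ± 287 places, with both signs among the libraries, when matches had to lie within 50 bp, 227 ± 157 with the promoter limit at 1000 bp, and 726 ± 3.55 with exons of protein-coding genes only. Against promoter peaks, whose summits lay within 500 bp of a TSS, the difference was 775 ± 346 places. Against intronic peaks it was 225 ± 191 places and against intergenic peaks 5.67 ± 171, the last with both signs among the libraries (p = 1 by the same exact test). With the promoter limit at 1000 bp the difference from intronic peaks was −17.8 places, so its direction depended on that limit, and it was 115 places without replicate 4 and 89.5 with matches within 50 bp. Within the exonic peaks, noncoding ones ranked higher than the others, with a median of 3826 ± 167 against 4756 ± 32.2 (SD, n = 3). Coding ones ranked lower, with 5330 ± 594 against 4194 ± 135. The 5′ UTR and 3′ UTR peaks differed from the other exonic peaks by less than the spread between libraries (344 ± 805 and 130 ± 783 places).

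A peak was called matched in all libraries where each top list had a summit within 100 bp. That held for 110 of the 210 exonic peaks (52.4%; exact 95% interval 45.4 to 59.3%), and the share over the whole list was 56.8%. Another 60 were matched in 2 libraries, 36 in 1 and 4 in none. The 4 were single summits in RalGPS, Inx2, lncRNA:CR44943 and CG13003. Counting any of the 30000 peaks of a library, 181 had a summit within 100 bp in all 3, 25 in 2 and 4 in 1. The share followed signal. The pooled signal comes from the same 3 libraries, so this trend was in large part built in. In the strongest of 4 nearly equal groups of the list by signal, 46 of 46 exonic peaks were matched in all 3 libraries, against 94.6% of the other peaks. In the next groups the exonic counts were 38 of 44 (86.4%), 26 of 65 (40%) and 0 of 55, against 82.9, 44.2 and 5.39% of the other peaks. A count of 0 of 55 allows a share of up to 6.49% by the exact interval. By class, 48 of 80 noncoding, 30 of 57 5′ UTR, 25 of 53 3′ UTR and 7 of 20 coding peaks were matched in all 3 libraries.

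Base composition at the summit differed between the classes on average, with overlap between single peaks. GC content was taken from 50 bp before to 50 bp after the summit and set against the mean of windows of the same length centred 250 bp to either side. Coding peaks had 54.0% GC at the summit and 43.8% in the flanks, 10.1 ± 13.1 percentage points higher at the summit (SD over 20 peaks), and the summit was the richer in 16 of 20. Noncoding peaks had 34.9% at the summit and 45.2% in the flanks, 10.3 ± 13.6 points lower at the summit (SD over 80 peaks), and the summit was the richer in 16 of 80. The 5′ UTR peaks had 44.5% and 41.9%, and the 3′ UTR peaks 38.5% and 41.2%. Over all sequence of a class more than 500 bp from a TSS, GC content was 53.4% in coding exons, 43.2% in 5′ UTRs, 35.2% in 3′ UTRs and 41.1% in noncoding exons. The coding summits were thus close to coding sequence at large, while the noncoding summits had less GC than noncoding exons at large. Of the flank windows of coding peaks, 57.5% were centred in an exon, against 80.6% for noncoding peaks.

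The same measure in the libraries' own top lists kept these differences. Summit minus flank GC of coding peaks was 10.1, 9.64 and 11.0 percentage points in replicates 1, 3 and 4, against −8.45, −8.31 and −10.2 for intronic peaks. The difference was 19.2 ± 1.72 points (SD, n = 3; exact sign-flip permutation test, p = 0.25), higher in 3 of 3 libraries. The 5′ UTR peaks were 10.3 ± 1.28 points above intronic peaks and the 3′ UTR peaks 4.85 ± 1.86 points above. Noncoding peaks differed from intronic peaks by −0.733 ± 2.23 points, with both signs among the libraries, which is less than their spread. Over all exonic peaks the value was −3.42 ± 1.99 points, against −3.74 ± 2.0 for promoter peaks, a difference of 0.325 ± 0.218.

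**Figure D4:**
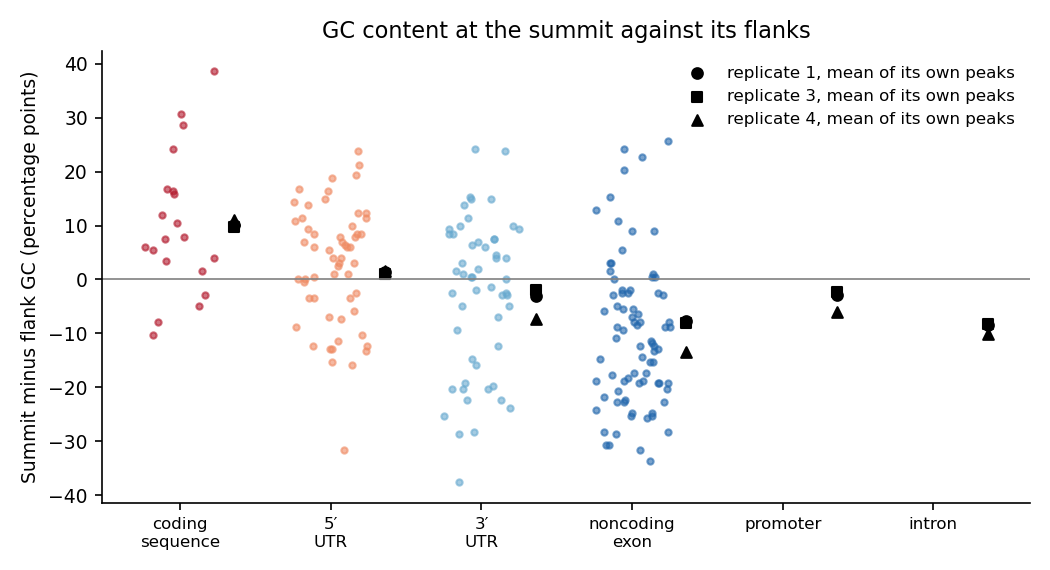
Summit minus flank GC content in percentage points (vertical axis). Coloured points are the 210 exonic peaks by class of exon, and black symbols are the means of replicates 1, 3 and 4 over the peaks of their own top lists, given also for promoter and intronic peaks. Coding peaks average 10.1 points above their flanks and noncoding peaks 10.3 points below, and the noncoding symbols lie near the intronic ones.

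E-boxes were about as frequent at exonic summits as around them and at other summits. CANNTG, which reads the same way on both strands, was within 50 bp of the summit in 82 of 210 peaks (39.0%; exact 95% interval 32.4 to 46.0%). The share over the whole thresholded list was 36.7%, and 41.9% of the flanking windows of the exonic peaks had one. In the libraries' top lists, exonic summits held one in 39.1, 37.0 and 33.6% in replicates 1, 3 and 4, against 36.5, 42.9 and 42.7% of their flanks. The difference of −4.12 ± 5.99 percentage points had both signs (SD, n = 3; exact sign-flip permutation test, p = 0.5). Between kinds of summit the share was 36.6 ± 2.73% at exonic summits and 36.6 ± 1.09% at other summits (SD, n = 3), a difference of −0.0753 ± 1.70 percentage points (exact sign-flip permutation test, p = 0.75). By class, 27 of 57 5′ UTR, 19 of 53 3′ UTR, 28 of 80 noncoding and 8 of 20 coding summits held one. The particular E-box CATATG was in 5 exonic summits (2.38%), in lncRNA:CR44619, Ask1, Myd88, lncRNA:Hsromega and CG2901, against 3.94% of the other summits. CACGTG was in 2 (0.952%), cbt and sbb, against 0.788% of the other summits. No match says only that these letters are not in the window.

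The word GAGAG, or CTCTC on the other strand, which is part of the repeat bound by GAGA factor, a protein known to open chromatin in the fly, was counted next. It was in 40 of 210 (19.0%; exact 95% interval 14 to 25%), against 14.2% of the other peaks and 17.6% of promoter peaks. Among the other peaks, intronic (12.7%) and intergenic summits (10.5%) had the lower shares. Flanking windows held the word in 16.2% of cases around exonic peaks and in 17.2% around the other peaks. Most of the 40 exonic summits were in 5′ UTRs, where 21 of 57 (36.8%) held it, including cbt, Fbl6, baz and spen. The counts were 11 of 53 in 3′ UTRs, 7 of 80 in noncoding exons and 1 of 20 in coding sequence. In the libraries' top lists it was in 25.1, 19.4 and 20.4% of exonic summits of replicates 1, 3 and 4, against 15.6, 14.7 and 12% of the others. The difference was 7.52 ± 2.52 percentage points, higher in 3 of 3 libraries (SD, n = 3; exact sign-flip permutation test, p = 0.25). A difference from promoter peaks alone was not tested in the libraries. The 8-letter palindrome TATCGATA was in none of the 210 summits, against 50 of 7361 others (0.679%). A count of 0 of 210 allows a share of up to 1.74% by the exact interval, so it cannot show a difference. Of the 50, 41 were promoter peaks, and the word was rare in intronic (0.177%) and intergenic summits (0.249%) too.

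The X chromosome held a larger share of the exonic peaks than of the other peaks. Of the 210, 60 lay on X (28.6%; exact 95% interval 22.6 to 35.2%), against 18.4% of the other peaks and 18.7% over the whole list. Among the other peaks, 22% of intronic, 18.1% of promoter and 8.79% of intergenic peaks were on X, and X held 19.1% of the exonic sequence over 500 bp from a TSS. This was 11.9 peaks per Mb of such sequence on X and between 6.19 and 9.12 on arms 2L, 2R, 3L and 3R, with none on chromosomes 4 and Y. These rates take all classes of exon together, and the share of each class in the sequence of an arm was not compared. In the libraries' top lists the X share of exonic peaks was 24.2, 26.5 and 30.8% in replicates 1, 3 and 4, against 17.5, 17.8 and 18.8% of other peaks. The difference was 9.17 ± 2.68 percentage points, higher in 3 of 3 libraries (SD, n = 3; exact sign-flip permutation test, p = 0.25). Against intronic peaks, of which 21.1, 21.1 and 22.6% were on X, it was 5.57 ± 2.54 points, also higher in 3 of 3 (exact sign-flip permutation test, p = 0.25). Among the weaker peaks the difference from other peaks was 1.66 ± 1.05 points. By class, 8 of 20 coding, 17 of 57 5′ UTR, 18 of 53 3′ UTR and 17 of 80 noncoding peaks (21.3%; exact 95% interval 12.9 to 31.8%) were on X. The X share of noncoding peaks in the top lists was 18.2, 15.8 and 25.6%, which differed from that of intronic peaks by −1.74 ± 4.28 points, less than the spread between libraries. Among the 170 peaks that were the only one in their host gene, 45 (26.5%) were on X. The X peaks of the list were not the stronger ones: their median library rank was 4665 ± 212, against 4213 ± 114 for the other exonic peaks (SD, n = 3).

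**Figure D5:**
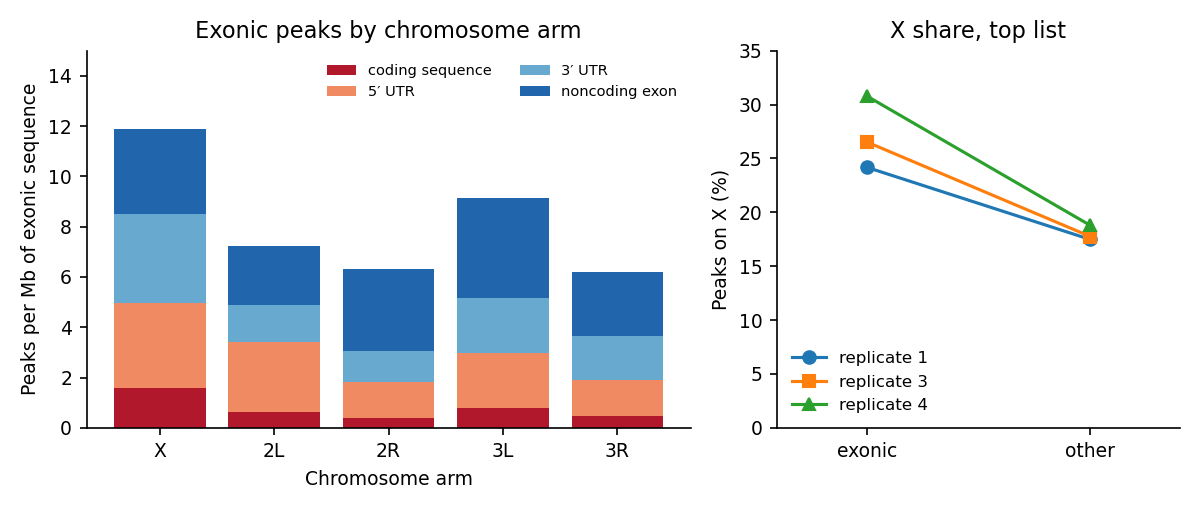
Exonic peaks per Mb of exonic sequence over 500 bp from a TSS on the 5 large chromosome arms, stacked by class of exon (left), and the share of peaks on X among exonic and other peaks of the top list of each library, in percent (right). X has 11.9 peaks per Mb of exonic sequence of all classes together. In each of the 3 libraries the exonic share on X (24.2, 26.5 and 30.8%) is above that of other peaks.

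The host genes numbered 187, with 1 host taken per peak, and 17 of them held 2 or more exonic peaks, 40 peaks in all. Hosts of 3 or more were lncRNA:CR43334, lncRNA:CR43650, lncRNA:CR44619 and spen. Pairs lay in CG12535, CG33307, Inx2, Lsd-2, baz, bif, klar, sbb, lncRNA:CR44831, lncRNA:CR45245, lncRNA:CR45911, lncRNA:CR46004 and lncRNA:Hsromega. The interval of 18 of the 210 peaks overlapped that of another exonic peak, so these share sequence. Protein-coding genes with an exonic peak were 123 of 13968 (0.881%). Here and in the list counts below, every gene with an exon under a summit was counted, so these are not parts of the 187. Of the pathway lists, which were written with earlier results of these data known, the EGF receptor pathway had 4 of 25 genes as hosts, namely Raf, cic, aop and vn. All 4 peaks were in 5′ UTRs. Raf and cic are described above, aop encodes the repressor Yan and had a signal of 252 with ranks of 6334, 1734 and 6083, and vn encodes a neuregulin-like ligand and had 145 with ranks of 8113, 6011 and 9390. In the list of the ecdysone response, the hormone program that drives metamorphosis, the hosts were 3 of 23. EcR, the receptor itself, had a 5′ UTR peak with a signal of 229 and ranks of 3333, 4106 and 4055. Hr4, a nuclear receptor, had a 3′ UTR peak with 268, shown above with the E-box CACCTG at its summit, and crol, a zinc finger gene, had a 5′ UTR peak with 188.

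Of the wing vein genes 2 of 28 were hosts, vn and tkv, the type I receptor for BMP ligands, and tkv was the only one of 20 BMP pathway genes. The tkv peak had a signal of 139 and ranks of 7734 and 5443 in replicates 3 and 4, but 27267 in replicate 1. Of 35 bHLH genes 2 were hosts. gce, a juvenile hormone receptor, had a 5′ UTR peak with 181, and a peak with 190 lay in an exon of the growth regulator Myc that is also 3′ UTR of CG12535. Top2, topoisomerase II, was the host among 36 chromatin regulators, with 172. No host was found among 22 Notch and Enhancer of split genes, 20 Hox and selector genes, 20 heat shock genes, 29 RNA processing genes, 92 ribosomal protein genes and 96 cuticle protein genes, nor among 290 tRNA and 257 snoRNA genes. A gene no longer than 500 bp could not be a host, as all of it lies within 500 bp of its own TSS. For tRNA and snoRNA genes as short as that, the absence of hosts followed from the rule. Over all protein-coding genes 0.881% were hosts. At that share a list as short as the others here can easily hold none. Of 1945 genes named as lncRNA, 67 (3.44%) were hosts.

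Distance from the nearest TSS ran between 506 and 26079 bp with a median of 1138 bp. It was at most 600 bp in 34 peaks and at most 1000 bp in 92, and 15 peaks were farther than 5 kb, the farthest in the 3′ UTR of Glut4EF. For 151 of the 210 (71.9%) the nearest TSS was one of the host gene, and the summit was downstream of the nearest TSS in 167. Just over the limit of 500 bp were Fbl6 at 506 bp with a signal of 1028 and Pp2C1 at 507 bp with 356. lncRNA:CR44619 at 509 bp had 1808, and Syp and lncRNA:CR45921, both at 511 bp, had 288 and 191. Just under it, and so left out, were exonic summits of Pp2C1 at 498 bp with 227 and a further gene at 497 bp with 161. lncRNA:CR43704 at 491 bp had 343, and mtd and CG43389, both at 490 bp, had 145 and 1074. In all, 811 exonic summits of the list lay within 500 bp of a TSS and were counted as promoter peaks.

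Within the exons, 65 summits were in the last exon, 60 in the exon of a transcript with only 1, 40 in an internal exon and 32 in the first, while 13 had different positions in different transcripts. The exons had a median length of 1248 bp, and the summit lay a median of 252 bp from the nearer exon edge. In coding peaks this distance was 99.5 bp, and 11 of 20 were within 100 bp of an edge. In all, 81 summits were intronic in some other transcript, of the same or another gene, and 129 were in none. The nearest other summit of the thresholded list was a median of 1914 bp away, against 1845 bp for the other peaks, and 34 of 210 (16.2%) had one within 500 bp, against 18.4%.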

How the data were processed

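ChIP-seq peak lists on dm6 of 3 libraries, of the pooled libraries and after irreproducible discovery rate (IDR) thresholding were used as deposited. Each peak's signal is the authors' value, per the file descriptions deposited with the lists; the names of the aligner and the peak caller were not given in the sources used here. Lists hold no read counts, so depth is unknown and counting precision of a peak cannot be given. The IDR list was found to equal the strongest peaks of the pooled list, signals included. Its order is thus that of pooled signal, and how the IDR procedure set its length was not given in the sources used here. The dm3 lists were not used.

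Summits were annotated with Ensembl 115. CDS took precedence over 5′ UTR, 3′ UTR and noncoding exon where transcripts disagreed. Python 3.11.15, numpy 2.4.6, pandas 2.3.3 and scipy 1.17.1 were used, and the annotation code was tested on simulated peaks. Libraries, not peaks, were the replicates, and p-values are from exact two-sided sign-flip permutation tests without adjustment. Whether the replicates came from separate collections is not stated beyond the label biological. The peaks and gene lists described were chosen with earlier results of these data known. Genes named were the 25 strongest peaks, the 5 strongest per exon class, those nearest the distance limit, listed pathway genes and hosts of several peaks; peaks holding particular E-boxes or GAGAG, unmatched peaks and the most distant peak were named after their values were seen. Alternatives were other promoter limits, annotation and matching choices, windows and each library left out.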

Additional observations from a re-analysis of the deposited data

How the results depend on the processing

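The count of exonic peaks depended on the definition: 381 with a promoter limit of 200 bp, 118 with 1000 bp, 130 with exons of protein-coding genes only and 90 in the stronger of 2 equal parts of the list by signal. The exonic share of the top lists moved likewise, to 5.24%, 1.53% and 1.79%, and to 2.52% in top lists cut likewise. In that part, 93.3% were matched in all libraries, 5.56% were coding, summit GC lay 5.55 percentage points below the flanks (−5.55) and the nearest summit was 2801 bp away; merging overlapping peaks gave 2437 bp. With protein-coding exons only the coding share was 15.4% and summit minus flank GC turned to 1.61, since the noncoding peaks were left out. Matching within 50 bp gave 36.7% matched in all libraries, and requiring only the other libraries gave 60.5 to 63.8% when 1 was left out. E-box shares followed window length, 21.0% with 25 bp and 64.3% with 100 bp each side. The rank difference from intronic peaks was −17.8 with the limit at 1000 bp. That from intergenic peaks was −157 with that limit, −176 and −92.0 with matches within 50 and 200 bp, and between −92.8 and 56.8 with 1 library left out; these causes were not tested. The remaining 98 of 124 values, over 17 results, kept their direction or stayed near the value given. Among them, moving the flanks could not change the E-box share or the GAGAG difference, which use summit windows only. The alternatives for coding share, X share, GAGAG and coding GC were chosen after seeing the data, and kept their direction. No paired analysis was possible because all libraries form 1 group, so replicate numbers pair no samples across groups; the tests compare kinds of peak within each library. Unknown depth limits every statement about weak peaks.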
